A study of Homo sapiens with 2 samples.

Results

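The 10 genes described here are feedback inhibitors and transcriptional outputs of the RAS-RAF-MEK-ERK kinase cascade: DUSP4, DUSP5, DUSP6, SPRY2, SPRY4, SPRED1, SPRED2, PHLDA1, ETV4 and ETV5. They were found by symbol in a table of isoform expression, where all 10 were present among 26257 gene symbols, with 21 of the 63236 isoforms. RNA came from HCT-116, an established human colorectal carcinoma cell line, and 2 libraries were compared. The LPA library was made from serum-starved cells given lysophosphatidic acid (LPA), a phospholipid ligand of G protein-coupled receptors, at 10 µM for 24 h. The control library was made from HCT-116 cells labelled only as control, and whether they were serum starved too is not given in the sources used here. Both come from the same line, and there is 1 library per condition, so differences below are between these 2 libraries, with no replicate check and no p-value.

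ERK is the last kinase of a cascade that growth factor receptors, and many G protein-coupled receptors, switch on through RAS. Active ERK induces genes whose products shut the cascade down again. Dual-specificity phosphatases (DUSP) remove the activating phosphates from ERK, and Sprouty (SPRY) and SPRED proteins act upstream at RAS and RAF. The ETS factors ETV4 and ETV5 carry the signal on to further genes. The RNA levels of such genes are widely read as a measure of ERK output in tumours, colorectal carcinoma among them.

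All 10 genes were expressed at close levels with and without LPA. In such bulk RNA a change in the make-up of the cells and a change of RNA per cell cannot be told apart. Levels are in FPKM, fragment numbers relative to transcript length and sequencing depth, summed over the isoforms of a gene, and can therefore be compared between genes. Log2 ratios set LPA over control after 1 FPKM was added to each level. In the LPA library 2 of the 10 genes were above the control and 8 below, with log2 ratios between -0.27 and 0.11. The median was -0.047 over the 10 genes, against 0.00091 over the 11688 genes with a mean of at least 1 FPKM. None of the 10 was at least 1.2-fold higher, where 12.6% of all measured genes were, and 1 of 10, DUSP6, was at least 1.2-fold lower, where 14.5% were. At 1.5-fold no member was counted in either direction, against 1.45% of all genes higher and 1.54% lower. By any amount, 50.2% of all genes were above the control and 49.8% below it. The log2 ratios of 7 of the 10 members lay in the central 50% of all genes, -0.17 to 0.16.

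The 10 genes together held 414 FPKM in the LPA library and 436 FPKM in the control library. Sequencing depth was estimated from the smallest steps in the values, at about 15800000 fragments for the LPA library and 16700000 for the control library. The members rested on an estimated 88 to 9074 fragments in the LPA library and 91 to 11126 in the control library. From these numbers each ratio has a 95% interval, exact (Clopper-Pearson) for genes with 1 isoform. For genes with several isoforms the interval was scaled to the ratio of summed FPKM. It covers counting error only. It held a ratio of 1 for 5 members, lay below 1 for 4 (DUSP6, SPRED1, SPRED2 and PHLDA1) and above 1 for DUSP5. The share of all genes with such an interval on one side of 1 was not counted, so these numbers do not set the members apart. Among genes with a mean of at least 5 FPKM, the robust SD of the log2 ratio between these 2 libraries was 0.24. All 6 epithelial markers (EPCAM, CDH1, KRT8, KRT18, KRT19 and CLDN7) were above 1 FPKM, summing to 3910 FPKM in the LPA library and 2991 FPKM in the control library. Of 5 intestinal markers only CDX2 was, and CDX1 and VIL1 were listed at 0 in both. Such a 0 can be a failed estimate and does not show that a marker gene is silent. None of 5 immune and 4 endothelial markers reached 1 FPKM, and of 6 fibroblast markers only COL1A1 did (4.28 FPKM in LPA and 5.75 FPKM in control). The part of these lists in the results was not tested.

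**Figure D1:**
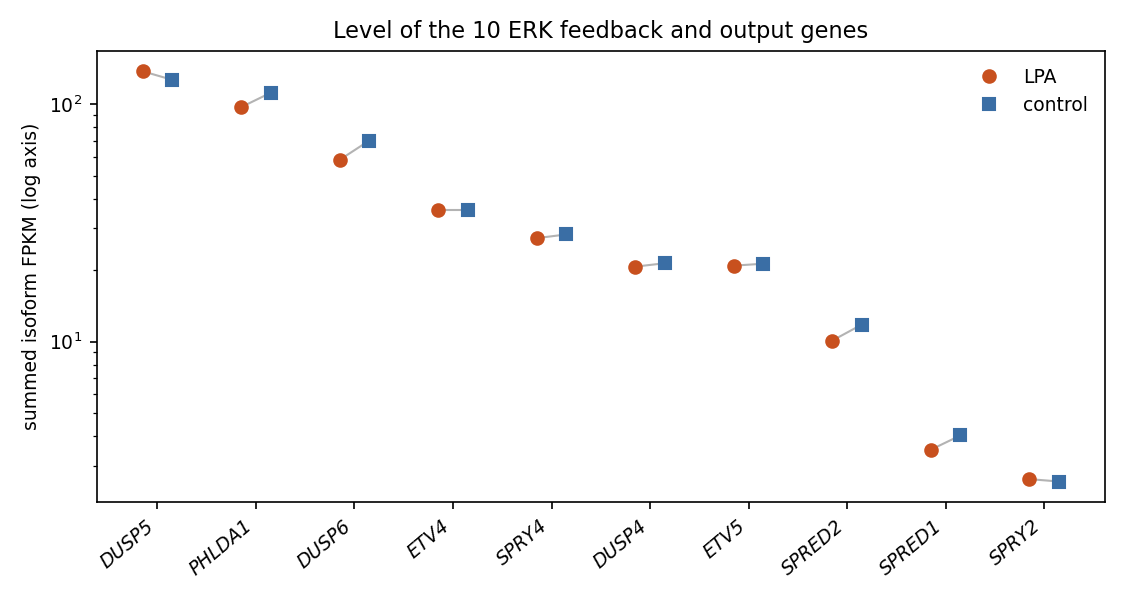
Summed isoform FPKM on a log axis for each of the 10 genes, with the LPA library as circles on the left of each pair and the control library as squares on the right. Levels run from DUSP5 (138 and 127 FPKM) down to SPRY2 (2.63 and 2.57 FPKM), and the 2 libraries lie close together for every gene.

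The order of levels was nearly the same in both libraries: DUSP5, PHLDA1, DUSP6, ETV4, SPRY4, then ETV5 and DUSP4, then SPRED2, SPRED1 and SPRY2. ETV5 and DUSP4 changed places between the libraries, and their levels differed by less than the deposited bounds of either. Within each family one gene led. DUSP5 led the phosphatases, SPRY4 was the more abundant Sprouty gene, SPRED2 the more abundant SPRED gene, and ETV4 the more abundant ETS factor.

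**Figure D2:**
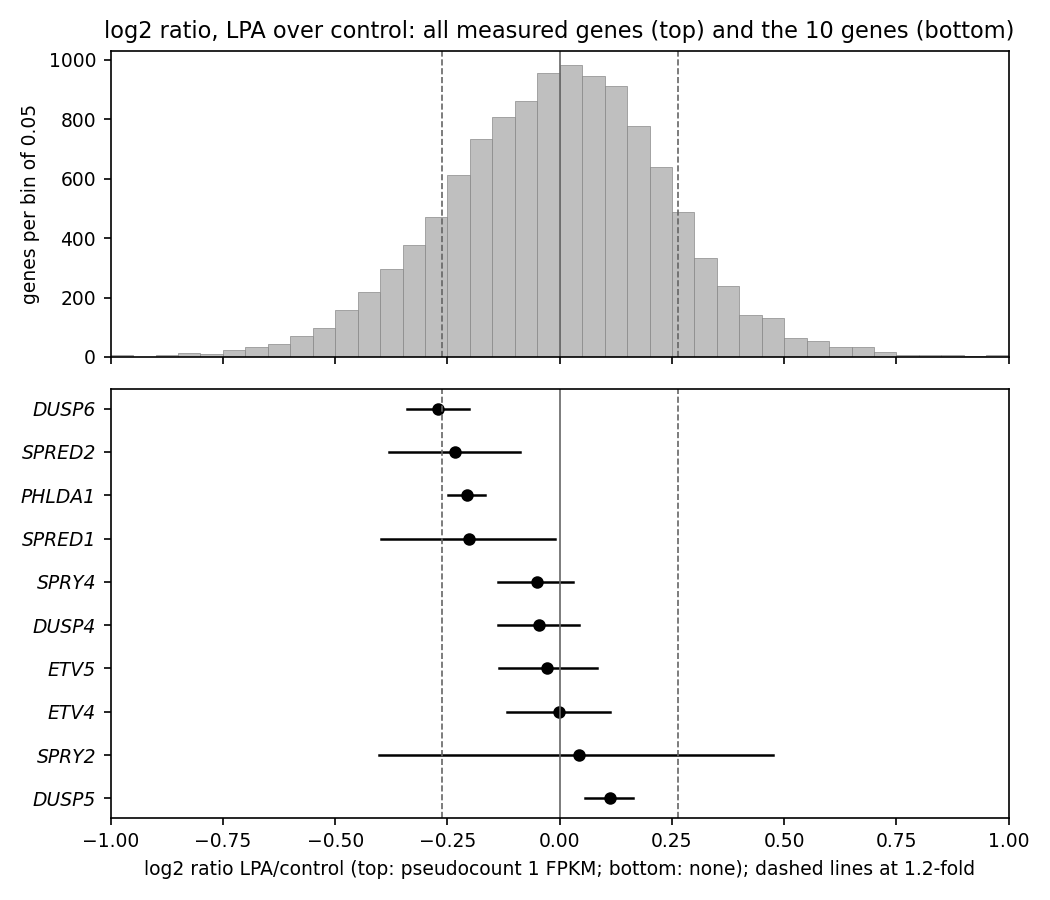
Top: number of measured genes per bin of log2 ratio, LPA over control. Bottom: log2 of the FPKM ratio of each of the 10 genes, with 95% intervals for counting error; the dashed lines mark 1.2-fold. DUSP6 sits at the lower 1.2-fold line (ratio 0.829) and DUSP5 is highest (ratio 1.08), both well within the spread of all genes.

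Among the phosphatases, DUSP5, a nuclear phosphatase selective for ERK, had 138 FPKM in the LPA library and 127 FPKM in the control library. Its ratio of 1.08 (interval 1.04 to 1.12) was the highest of the 10 genes and stood at percentile 68.0 of the log2 ratios of all genes. DUSP5 is a gene with 1 isoform in the table, at chr10:110497867-110511544 (hg38). The deposited bounds of that isoform, which come from the authors' software at a level not stated, were 100 to 175 FPKM with LPA and 92.8 to 162 FPKM in control, so they overlapped almost fully. DUSP4, another nuclear phosphatase of MAP kinases (chromosome 8, 29333062 to 29350750), had 20.7 FPKM with LPA and 21.4 FPKM in control, a ratio of 0.969 (0.909 to 1.03). Nearly all of it was the isoform NM_001394, and the second isoform, NM_057158, was at 0.0841 FPKM with LPA and listed at 0 in control.

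DUSP6, the cytoplasmic phosphatase selective for ERK, had the lowest log2 ratio of the 10 genes. Its summed level was 58.4 FPKM in the LPA library and 70.4 FPKM in the control library, a log2 ratio of -0.27 and a ratio of 0.829 (interval 0.790 to 0.869). This places it at percentile 14.3 of all genes. The 1.2-fold limit was only just passed: with a pseudocount of 5 FPKM, or with both libraries rescaled to the same sum, its log2 ratio was -0.25 and no member was 1.2-fold lower. DUSP6 lies on the minus strand at chr12:89347825-89352859.

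The DUSP6 total joined 2 isoforms that went in opposite directions. NM_001946, the full-length form of 3 exons, had 45.5 FPKM in the LPA library (bounds 31.7 to 59.3) and 66.5 FPKM in the control library (47.9 to 85.2). NM_022652, which skips the middle exon, had 12.9 FPKM in the LPA library (4.94 to 20.9) and 3.90 FPKM in the control library (0 to 9.20). The skipping form was thus 22.1% of DUSP6 FPKM with LPA and 5.53% in control, a difference of 16.60 percentage points. The bounds overlapped for both isoforms. Isoform shares moved in many genes: by at least 10 points in 35.4% of the 4573 genes with 2 or more isoforms and a mean of at least 5 FPKM, and the move in DUSP6 was at percentile 79.8 of them. The limit of 10 points was set after the values were seen.

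The 2 DUSP6 forms are told apart by reads at the following exon junctions, taken from the GENCODE 29 transcripts matched to the RefSeq isoforms (GRCh38, minus strand of chromosome 12). The middle exon lies at 89350588 to 89351025, is 438 nt long and wholly coding, and equals the 438 nt by which the deposited lengths of the isoforms differ. Leaving it out shortens the reading frame to 235 codons in NM_022652, against 381 in NM_001946. Each junction is shown with 30 coding bases on either side, and capitals mark bases of the middle exon, present in the full-length form only.
NM_001946, exon 1 to exon 2: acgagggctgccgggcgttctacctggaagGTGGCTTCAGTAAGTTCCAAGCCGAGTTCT
NM_001946, exon 2 to exon 3: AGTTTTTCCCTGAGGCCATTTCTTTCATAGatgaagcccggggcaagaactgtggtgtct
NM_022652, exon 1 to its next exon: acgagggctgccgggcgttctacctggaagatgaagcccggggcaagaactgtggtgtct

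The skipping junction joins the left side of the first sequence to the right side of the second. Only fragments that reach the middle exon or span these junctions separate the forms, so the estimated 603 and 193 fragments assigned to NM_022652 in the LPA and control libraries are fitted numbers rather than counted reads. The annotation also places an antisense gene, AC024909.2, over DUSP6, and the library kit does not mark strand, so reads of the pair cannot be told apart.

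**Figure D3:**
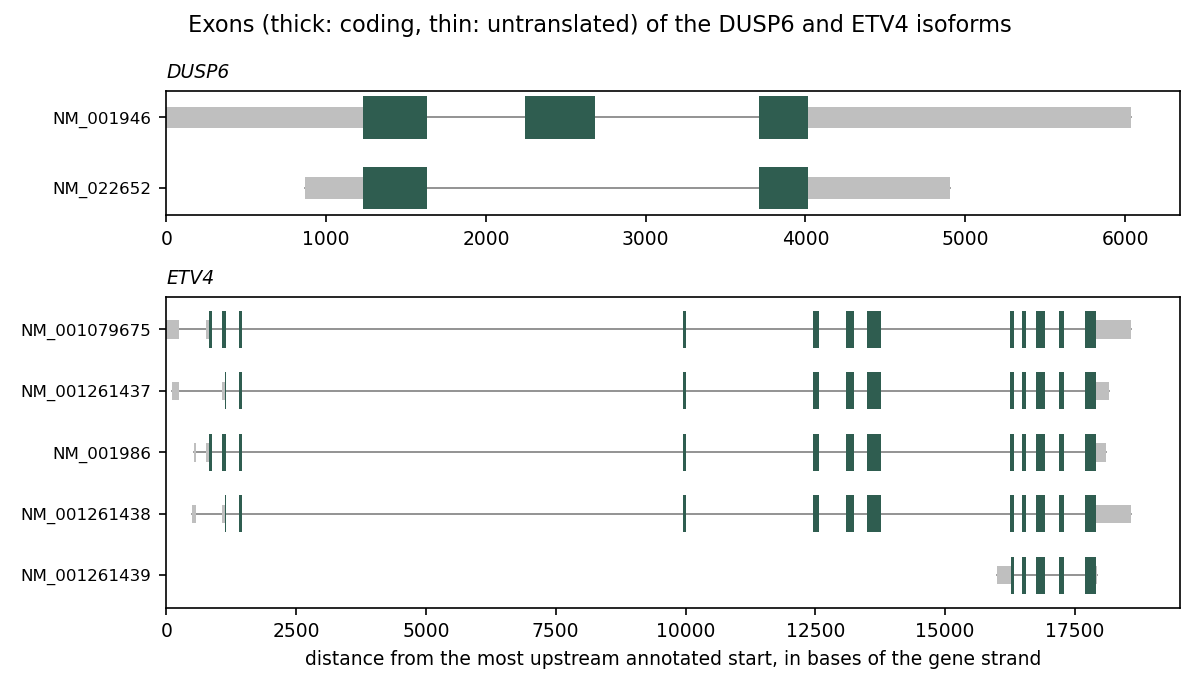
Exons of the DUSP6 and ETV4 isoforms in GENCODE 29, drawn to scale along the gene strand in bases from the most upstream start; thick blocks are coding and thin blocks untranslated. NM_022652 lacks the middle DUSP6 exon of 438 nt, and NM_001261439 holds only the last 5 exons of ETV4, the first of them with its own upstream extension.

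The Sprouty genes, whose products restrain receptor signalling to RAS and RAF, were nearly level between the libraries. SPRY4 (chr5:142310427-142325055) had 27.3 FPKM with LPA and 28.3 FPKM in control, a ratio of 0.965 (0.909 to 1.02). NM_001127496 made up 94.0% of SPRY4 FPKM with LPA and 98.6% in control, with 25.6 FPKM (bounds 18.4 to 32.8) and 27.9 FPKM (20.2 to 35.6). The rest in the LPA library was mainly NM_030964, at 0.960 FPKM (0 to 2.45), which was listed at 0 in control. SPRY4-AS1 is annotated as an antisense gene that overlaps SPRY4. SPRY2 (chr13:80335977-80340951) was the lowest of the 10 genes, with 2.63 FPKM with LPA and 2.57 FPKM in control. With an estimated 88 and 91 fragments, its ratio of 1.03 had an interval of 0.757 to 1.39, so a difference smaller than about that range was not detectable at this depth.

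SPRED1 and SPRED2 encode Sprouty-related proteins that bind neurofibromin, a GTPase-activating protein for RAS, and bring it to the membrane. Both were lower with LPA by less than 1.2-fold. SPRED1 (chr15:38252851-38357249) had 3.50 FPKM in the LPA library (bounds 2.46 to 4.54) and 4.02 FPKM in the control library (2.83 to 5.22), a ratio of 0.869 (0.759 to 0.993). SPRED2 (chr2:65310851-65432522) had 10.1 FPKM with LPA and 11.8 FPKM in control, a ratio of 0.851 (0.768 to 0.941) at percentile 19.6.

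SPRED2 is transcribed from 2 starts, each with its own isoform in the table. NM_181784, from the upstream start, had 6.11 FPKM with LPA (bounds 3.91 to 8.32) and 7.70 FPKM in control (5.05 to 10.3). NM_001128210, from the downstream start inside the first intron, had 3.95 FPKM with LPA (2.12 to 5.79) and 4.14 FPKM in control (2.08 to 6.19). The upstream form was the larger in both libraries, and the downstream form was 39.3% of the gene with LPA and 34.9% in control. The sequences before the 2 starts are shown because their isoforms were measured apart. They come from the RefSeq promoter windows (GRCh38.p14, minus strand, 5′ to 3′), cut back to bases upstream of the annotated transcripts at each start, and capitals mark GGAAG on either strand, the core of sites for ETS factors such as ETV4.
Upstream start, chr2:65432638-65432849: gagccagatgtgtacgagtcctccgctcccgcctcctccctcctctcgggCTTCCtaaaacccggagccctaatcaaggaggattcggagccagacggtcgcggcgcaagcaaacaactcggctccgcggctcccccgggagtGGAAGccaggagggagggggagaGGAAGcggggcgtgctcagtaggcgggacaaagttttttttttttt
Downstream start, chr2:65366779-65367028: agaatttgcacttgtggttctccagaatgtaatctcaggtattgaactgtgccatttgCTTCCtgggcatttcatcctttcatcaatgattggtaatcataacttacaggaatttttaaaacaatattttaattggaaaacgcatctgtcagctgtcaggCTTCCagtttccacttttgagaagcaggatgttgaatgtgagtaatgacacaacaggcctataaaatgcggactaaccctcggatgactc

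Windows of 300 bases were at hand for 6 of the 10 genes (9 windows, for DUSP6, PHLDA1, SPRED1, SPRED2, SPRY2 and SPRY4). On both strands, GGAAG was present in 8 of the 9, against 71.9% of all 35116 windows. The window at the upstream SPRED2 start had 6 matches, of which 3 lie in the printed bases. That at the downstream SPRED2 start had 2, all printed. TGANTCA, the AP-1 site, was found at the downstream SPRED2 start only, with 2 matches that end beyond the printed bases, against 7.71% of all windows. TGACGTCA, the cyclic AMP response element, was in none, against 1.85%. A loose form of the CArG box, the site of serum response factor, searched as a pair of C and a pair of G with any 6 bases between them, was in 6 of 9, against 78.2%. A few matches of GGAAG and of this form share bases, and a match describes the letters in a window only.

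PHLDA1, a pleckstrin homology-like protein whose gene is induced by ERK signalling, was the second most abundant of the 10. It had 97.4 FPKM in the LPA library (bounds 70.2 to 125) and 112 FPKM in the control library (81.1 to 144). Its ratio of 0.866 had the narrowest interval of the 4 lower genes, 0.842 to 0.891, because it rested on an estimated 9074 and 11126 fragments. That interval lies below 1, while the deposited bounds overlap and the log2 ratio of -0.21 is at percentile 20.6 of all genes. PHLDA1 is at chr12:76025447-76031776 on the minus strand, where the annotation places antisense genes as well.

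The ETS factors ETV4 and ETV5, of the PEA3 subfamily, were close between the libraries as whole genes. ETV5 (chr3:186046317-186109112) had 20.9 FPKM with LPA (bounds 15.2 to 26.7) and 21.3 FPKM in control (15.5 to 27.2), a ratio of 0.980 (0.910 to 1.06). ETV4 (chr17:43527843-43546432) had 35.9 FPKM in each library, a log2 ratio of -0.0014 whose sign turned to 0.016 when both libraries were rescaled to the same sum. The equal sums covered a different mix of isoforms and of fragments, with an estimated 1153 fragments with LPA and 1289 in control. The annotation places DHX8, a protein-coding gene on the other strand, over part of ETV4. ETV5 is overlapped by ETV5-AS1 on the other strand and by DGKG, a protein-coding gene, on the same strand. Since the library kit does not mark strand, reads from bases shared with the genes on the other strand cannot be told apart by it.

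ETV4 had 5 isoforms above 1 FPKM, more than any other of the 10 genes. The shortest, NM_001261439, starts inside the gene and keeps the last 5 exons, with 207 codons against 484 in the longest forms. The ETS DNA-binding domain of this subfamily lies toward the carboxyl end, the part that these exons encode. NM_001261439 had 12.9 FPKM in the LPA library (bounds 5.99 to 19.9) and 6.57 FPKM in the control library (1.56 to 11.6), or 36.0% and 18.3% of the gene. The 4 long forms together had 23.0 FPKM with LPA and 29.4 FPKM in control. With this short form standing for the gene, the log2 ratio of ETV4 was 0.88.

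The long forms divide further by the exon that holds the start codon of the longest reading frame. That exon, 111 nt at 43545558 to 43545668, is present in NM_001079675 and NM_001986, which together had 13.5 FPKM with LPA and 15.0 FPKM in control. It is absent from the long forms NM_001261437 and NM_001261438, which together had 9.44 FPKM with LPA and 14.4 FPKM in control. The long forms without the exon were therefore 26.3% of ETV4 with LPA and 40.1% in control. The short form lacks the exon too, and the forms that hold it were 37.6% of ETV4 with LPA and 41.6% in control. The deposited bounds overlapped for all 5 isoforms, and the largest move of a share in ETV4, 17.8 points, was at percentile 82.1 of genes with several isoforms. The following junctions, from GENCODE 29 (GRCh38, minus strand of chromosome 17), mark these forms with 30 coding bases on either side. Capitals mark the exon that the other forms lack, exon 2 in the first and exon 8, absent from the short form, in the second.
NM_001986, exon 2 to exon 3: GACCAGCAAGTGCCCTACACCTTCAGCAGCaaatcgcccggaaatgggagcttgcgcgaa
NM_001986, exon 8 to exon 9: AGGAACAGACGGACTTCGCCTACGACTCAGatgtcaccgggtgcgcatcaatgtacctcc

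**Figure D4:**
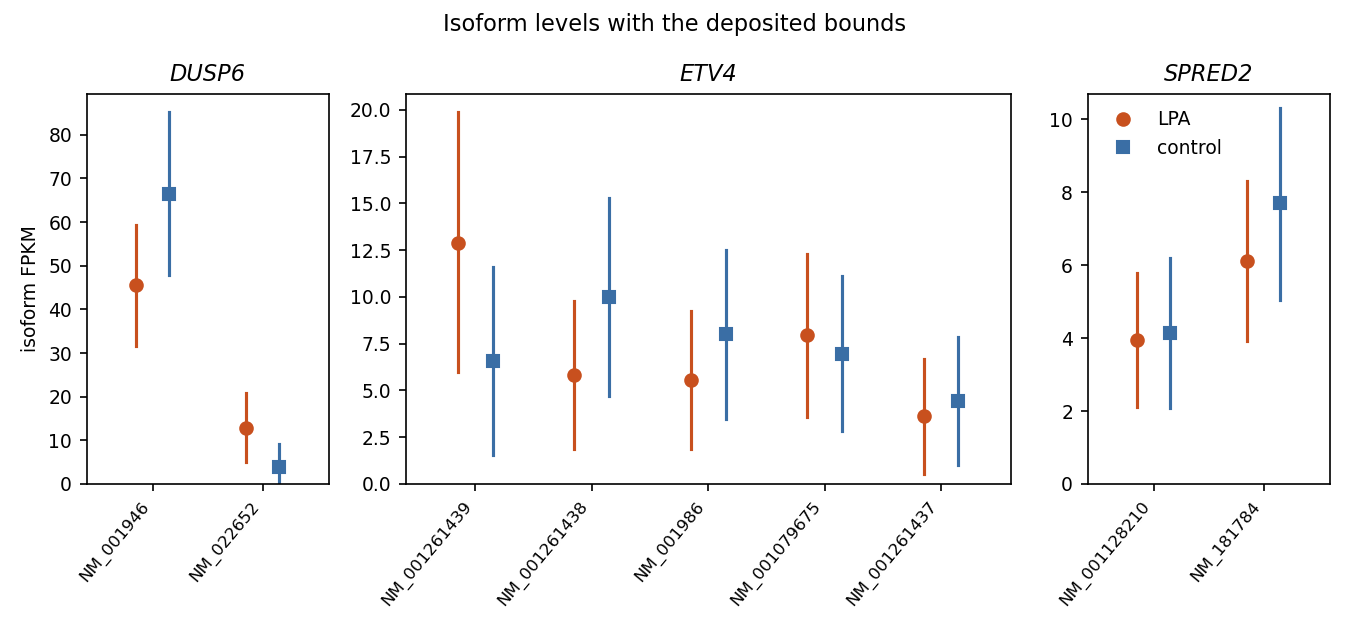
FPKM of the isoforms of DUSP6, ETV4 and SPRED2 with a mean of at least 1 FPKM, with the LPA library as circles on the left and the control library as squares on the right; lines are the bounds deposited by the authors. NM_022652 of DUSP6 (12.9 and 3.90 FPKM) and NM_001261439 of ETV4 (12.9 and 6.57 FPKM) are higher with LPA, with overlapping bounds.

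Of the 21 isoforms of the 10 genes, all had the status OK in both libraries and 16 had a mean of at least 1 FPKM. None of these 16 had bounds that were separate between the libraries. Of the 16999 measured isoforms of the whole table, 2.48% had separate bounds higher with LPA and 2.12% had them lower. At shares this small, finding none among 16 isoforms does not set the members apart.

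The other genes of the pathway were taken from 7 lists by role, with 66 genes of which 58 had a mean of at least 1 FPKM. Of these 58, 32 were higher with LPA and 26 lower by any amount, 7 passed 1.2-fold upward and 5 downward, and the median was 0.043. Over all measured genes 50.2% were higher by any amount, 12.6% passed 1.2-fold upward and 14.5% downward, and the median was 0.00091. Among 7 other MAP kinase phosphatases (DUSP1, DUSP2, DUSP7, DUSP8, DUSP9, DUSP10 and DUSP16) none was 1.2-fold higher and 1 was lower. That was DUSP9, a cytoplasmic relative of DUSP6, with 12.0 FPKM with LPA and 14.6 FPKM in control (log2 ratio -0.27). SPRY1, SPRY3 and SPRED3 were under the 1 FPKM limit. SPRY1 had 0.712 FPKM with LPA and 1.26 FPKM in control. The bounds of its leading isoform were separate (0 to 0.353 FPKM with LPA and 0.440 to 1.51 FPKM in control).

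Of 8 measured adaptors and regulators of RAS none was 1.2-fold apart, with GRB2, the adaptor that links receptors to the exchange factor SOS, at 57.1 FPKM with LPA and 55.1 FPKM in control. Of 11 measured RAS, RAF, MEK and ERK genes and scaffolds, 1 was at least 1.2-fold higher and 1 lower, where 12.6% and 14.5% of all genes were. HRAS had 70.8 FPKM with LPA and 43.9 FPKM in control, a log2 ratio of 0.68 at percentile 99.1. The HRAS sum covered 8 isoforms at 2 loci. The bounds of its leading isoform overlapped (34.7 to 68.6 FPKM with LPA and 19.1 to 39.7 FPKM in control). LAMTOR3, a scaffold of MEK and ERK on endosomes, had 4.54 FPKM with LPA and 6.63 FPKM in control (log2 ratio -0.46). MAP2K2, which encodes MEK2, was the most abundant gene of this list with 131 FPKM with LPA and 121 FPKM in control. NRAS was listed at 0 with LPA and in control, and since such a 0 can be a failed estimate it does not show that the gene is silent. Among 6 ERK substrate kinases 1 was 1.2-fold lower and none higher, with MKNK2 the most abundant at 53.7 FPKM with LPA and 55.8 FPKM in control.

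Several lists, among them those of ERK-regulated factors and of other output genes, had members further from 0 than any of the 10 genes. Of 9 ETS and other factors acted on by ERK, 2 were at least 1.2-fold lower, against 14.5% of all genes, none was as much higher, against 12.6%, and the median was -0.22. ERF, an ETS repressor whose export from the nucleus ERK promotes, had 41.1 FPKM with LPA and 58.7 FPKM in control (log2 ratio -0.50). ETV1, the third PEA3 factor, had 4.80 FPKM with LPA and 8.02 FPKM in control (log2 ratio -0.64), while its leading isoform alone went the other way, at 3.09 and 1.59 FPKM. Of 17 measured other ERK output genes, 6 were 1.2-fold or more higher, where 12.6% of all genes were, and none was as much lower, where 14.5% were. Of the 17, 3 were 1.5-fold or more higher, against 1.45% of all genes, and the median was 0.13. The lists were chosen with earlier results of these data known, so these counts describe the genes listed and do not show that ERK output genes differ from other genes. FOSL1, an AP-1 subunit, had 77.9 FPKM with LPA and 48.1 FPKM in control, EMP1, a membrane protein gene, 15.6 and 9.75 FPKM, and PLAUR, the urokinase receptor gene, 38.8 and 23.6 FPKM. The leading isoform of FOSL1 alone was less far apart, at 47.5 FPKM with LPA and 40.9 FPKM in control. Its log2 ratio was 0.21, under the 1.2-fold limit. For FOSL1, EMP1, PLAUR, ERF and ETV1 the deposited bounds of the leading isoform overlapped between the libraries. For MCL1, another output gene, they were separate, at 2.67 to 12.3 FPKM with LPA and 19.9 to 41.1 FPKM in control. As a whole gene MCL1 had 44.0 FPKM with LPA and 50.7 FPKM in control, less than 1.2-fold lower. IER2 had 156 FPKM with LPA and 129 FPKM in control, and PHLDA2, a relative of PHLDA1, 425 and 350 FPKM. IER3, the most abundant gene of the list, had 728 FPKM with LPA and 608 FPKM in control, just under the 1.2-fold limit.

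**Figure D5:**
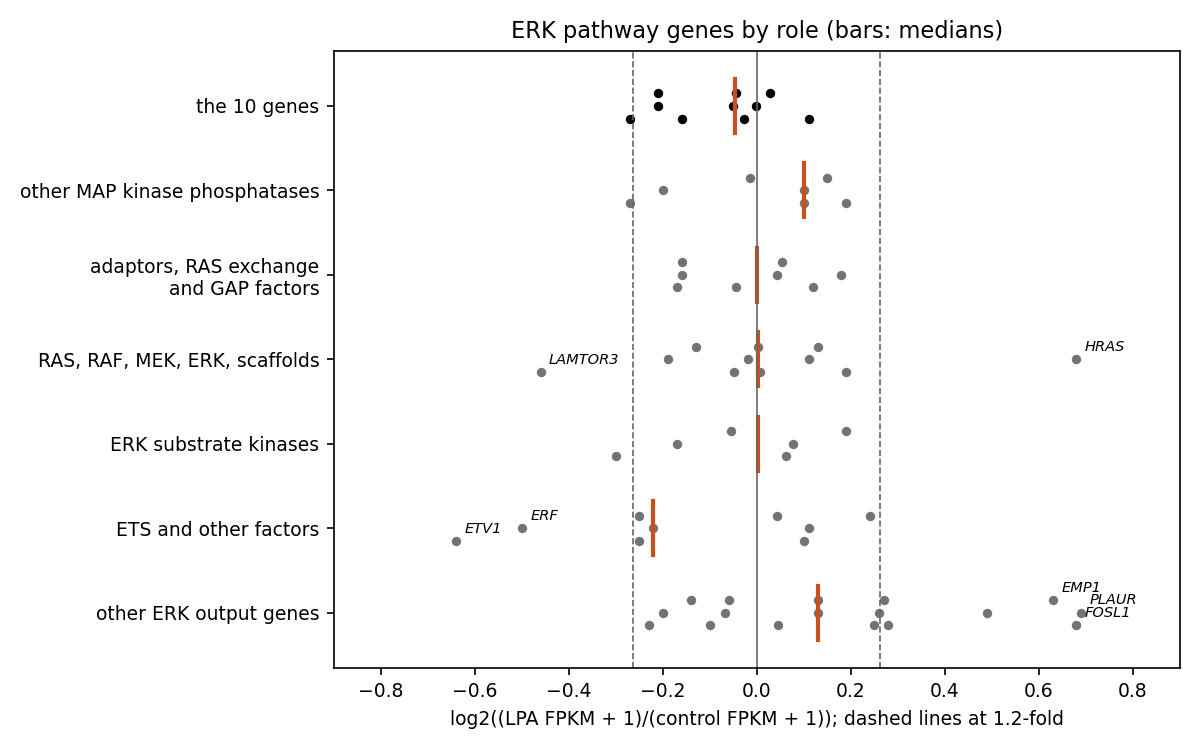
Log2 ratio, LPA over control with a pseudocount of 1 FPKM, of the 10 genes (black, top row) and of the measured genes of 6 lists of other ERK pathway genes (grey), with the median of each row as a bar and dashed lines at 1.2-fold. The 10 genes span -0.27 to 0.11, while HRAS (0.68), FOSL1 (0.68), PLAUR (0.69), EMP1 (0.63), ERF (-0.50) and ETV1 (-0.64) lie further out.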

How the data were processed

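RNA was extracted with Trizol and poly-A enriched, and libraries were made with the TruSeq V2 kit, per the labels' protocols. The tools named are bcl2fastq (2.16.0.10), TopHat2 (2.0.12), Cufflinks and Cuffdiff (2.2.0) on build hg38, per the submitters' processing notes, which as used here hold no settings. The authors deposited FPKM per isoform with lower and upper bounds, per the file headers; the length column, another deposited unit, is in nt.

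Groups came from the sample titles. Isoforms with the status HIDATA in the LPA library (16) were treated as missing, and FPKM were summed per symbol; 11688 of 26257 genes had a mean of at least 1 FPKM. Ratios used a pseudocount of 1 FPKM, which understates differences of low genes. The worth of 1 fragment was the median of FPKM multiplied by length in kb between 0.03 and 0.09, in loci with 1 isoform over 2000 nt (0.0634 for LPA and 0.0597 for control). Intervals take the fragment number as counted and the isoform mix as known, which it is not, so they are too narrow. The scripts were tested on simulated data. Members and lists were chosen with earlier results of these data known. Of the lists, genes at least 1.2-fold apart with a mean of at least 5 FPKM and the most abundant gene were named. SPRY1, NRAS, MCL1 and the marker genes were named beside them. Coordinates are deposited loci with 1-based starts (hg38) or GENCODE 29 exons (GRCh38). Python 3.11.15, pandas 2.3.3, scipy 1.17.1 and matplotlib 3.10.9 were used, with 10 alternatives.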

Additional observations from a re-analysis of the deposited data

How the results depend on the processing

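With 1 library per condition no replicate could be left out, and depth limits SPRY2 most. No paired analysis was possible because the groups share only 1 number. Of 9 other settings and 1 chosen after seeing the data (HIDATA isoforms kept at 0), 5 left every log2 ratio of the 10 genes as it was: both filters on the mean, which cannot change a ratio, and the 3 on HIDATA, short and class code j isoforms, of which the 10 genes have none above 0 FPKM. They are no check of these ratios, nor of the isoform shares of DUSP6, ETV4, SPRY4 and SPRED2. The other 5 settings changed 45 ratios, of which 43 moved by less than 0.5 of the width of their counting interval, and the median of the 10 genes stayed between -0.083 and -0.03. The count of members at least 1.2-fold lower, 1 as reported, was 0 with a pseudocount of 5 FPKM and 0 with both libraries rescaled to the same sum, since DUSP6 lies at the limit. When only the most abundant isoform of a gene was used, 1 member passed 1.2-fold upward and also 1.5-fold, so that 1 was counted at each limit (ETV4, log2 ratio 0.88), and 2 passed 1.2-fold downward (DUSP6, -0.54, and SPRED2, -0.29). These 2 genes and ETV4 have several isoforms, so the difference is that between one isoform and the sum. Under the same setting ETV1 reversed to 0.66. Of the other named pathway genes, FOSL1 went to 0.21, ERF to -0.81, HRAS to 0.79 and MKNK2 to 0.086. With a pseudocount of 5 FPKM, EMP1 went to 0.48, ETV1 to -0.41 and LAMTOR3 to -0.29. Without class code j isoforms, HRAS went to 0.81.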
